A study of Mus musculus with 11 samples.

Results

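RNA from 3 Casp8-/- Tnfr1-/- fetal livers was compared with RNA from 3 wild-type (WT) fetal livers, across all genes, in a series of 11 livers that also holds 2 Tnfr1-/- and 3 Casp8-/- Mlkl-/- livers. The 6 livers were chosen by the genotype their labels give. All were taken at E15.5 of embryonic development from untreated embryos on a C57BL/6N background. Casp8 encodes caspase-8, a protease that starts apoptosis and holds necroptosis in check, and Tnfr1 (gene symbol Tnfrsf1a) encodes a receptor for the cytokine TNF. Both genes were knocked out in the germline, so no cell type was targeted alone, and the comparison with WT does not tell the loss of caspase-8 from the loss of TNFR1. Interferon-stimulated genes, a list of 146 symbols, were set apart, and the account below is of the other genes.

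The fetal liver is a blood-forming organ. At this age it holds maturing erythroid cells in large numbers beside hepatocytes, resident macrophages (Kupffer cells and their precursors), granulocyte precursors, endothelial cells and stellate cells. Hepatocytes answer inflammatory cytokines such as IL-6 and IL-1 with the acute phase response, a rise of secreted defence proteins. Neutrophil precursors make their granule proteins in a fixed order, those of primary granules first and those of secondary granules later. In RNA from whole liver, more or fewer cells of a type and more or less RNA per cell cannot be told apart.

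Between 23129212 and 30520499 reads were counted on genes in each of the 6 livers. Levels are given as CPM, the counts of a gene scaled to the library's size after TMM normalisation, and in every series of 3 values the livers stand in the order 1, 2 and 3, those of WT before those of Casp8-/- Tnfr1-/-. A gene was called at an adjusted p below 0.05 (edgeR quasi-likelihood test, Benjamini-Hochberg over 17243 genes tested, all 11 livers in the fit), and fold changes are log2 of Casp8-/- Tnfr1-/- over WT ± SE, n = 3 and 3. The spread within all genotypes of the series enters each test, so a gene that was not called is not shown to be unchanged. The defining hepatocyte genes Alb, Afp, Apoa1 and Hnf4a and the erythroid genes Klf1 and Alas2 were present in all 6 livers. Casp8 gave 33.6, 30.5 and 27.7 CPM in WT and 13.1, 11.46 and 21.9 CPM in Casp8-/- Tnfr1-/- livers (log2 fold change -0.99 ± 0.24, adjusted p = 0.0401), with liver 3 the highest of the knockout livers. Tnfrsf1a gave 52.8, 53.4 and 47.1 CPM in WT and 76.9, 76 and 425 CPM in Casp8-/- Tnfr1-/- livers, and was not called (1.91 ± 0.59, adjusted p = 0.0896). Reads on the rest of a disrupted gene are counted too, so a level summed over the whole gene does not check the deletion, and for Tnfrsf1a it was not lower in the knockout livers.

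Casp8-/- Tnfr1-/- liver 3 stood apart from livers 1 and 2. Its log2 CPM correlated with theirs at r = 0.891 and 0.888 across genes, against 0.992 between livers 1 and 2 and 0.986 to 0.99 among WT livers. None of 29 tested striated muscle genes was called, but their summed level was 2589 CPM in liver 3, 108.0 and 82.9 CPM in livers 1 and 2 and 63.6 to 73.6 CPM in WT. Livers 1 and 2 also lay above WT, with medians of 1.15 and 0.50 on the log2 scale against 5.86 in liver 3, and without liver 3 the genes Tnni1, Tnnt1 and Des, 3 of 27 tested, were called higher. Liver 3 was also the only 1 of the 6 with Xist RNA above 1 CPM (3409 CPM) and the only 1 nearly without the Y-linked Ddx3y (0.057 CPM, against 80.1 and 96.5 CPM in livers 1 and 2), the pattern of a female embryo among males. The genotype of liver 3, like that of the others, rests on its label. No measure of RNA quality was used, and the part of RNA quality, dissection or labelling in its values was not tested. The number of calls in each list below is therefore also given without liver 3, where 2 livers stand against 3, unless it was the same.

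Of 17243 genes, 879 were called higher, 5.1% of those tested, and 121 were called lower, 0.702%. Without liver 3, 1239 of 17027 genes (7.28%) were higher and 435 (2.55%) lower. Casp8-/- Mlkl-/- liver 1, which is in the fit, also stood apart from livers 2 and 3 of its genotype. Its median difference from WT over the late neutrophil genes described below was 2.18, against -0.18 and -0.25. Without that liver, a fit chosen after seeing the data, 1246 genes were higher and 368 lower. Fewer genes were called without a WT liver: leaving out WT liver 1, 2 or 3 left 355, 284 and 270 genes higher and 13, 11 and 11 lower. The cause of this drop was not tested. A set of 115 called genes, which leaves out some of the called genes named below, was followed across the fits. Of these, 63, 57 and 54 were still called then, and all 115 kept their sign in these fits. Casp8 was among those that lost their call. In both the fit of all livers and the fit without liver 3, 839 genes (4.87%) were higher and 115 (0.667%) lower. Every Casp8-/- Tnfr1-/- liver lay above every WT liver for 19.5% of the genes, and below every WT liver for 18.9%. The interferon list gave 116 of the higher calls among 139 genes tested and none of the lower. Outside it 763 genes were higher and 121 lower, and 724 and 115 of these were also called without liver 3. The other 56 lists, which group genes by cell type or pathway, held 159 of the 763 and 14 of the 121. The counts of members called in each list are to be read against the percentages of all genes given here, and the median log2 fold change over all genes tested was -0.0015.

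**Figure D1:**
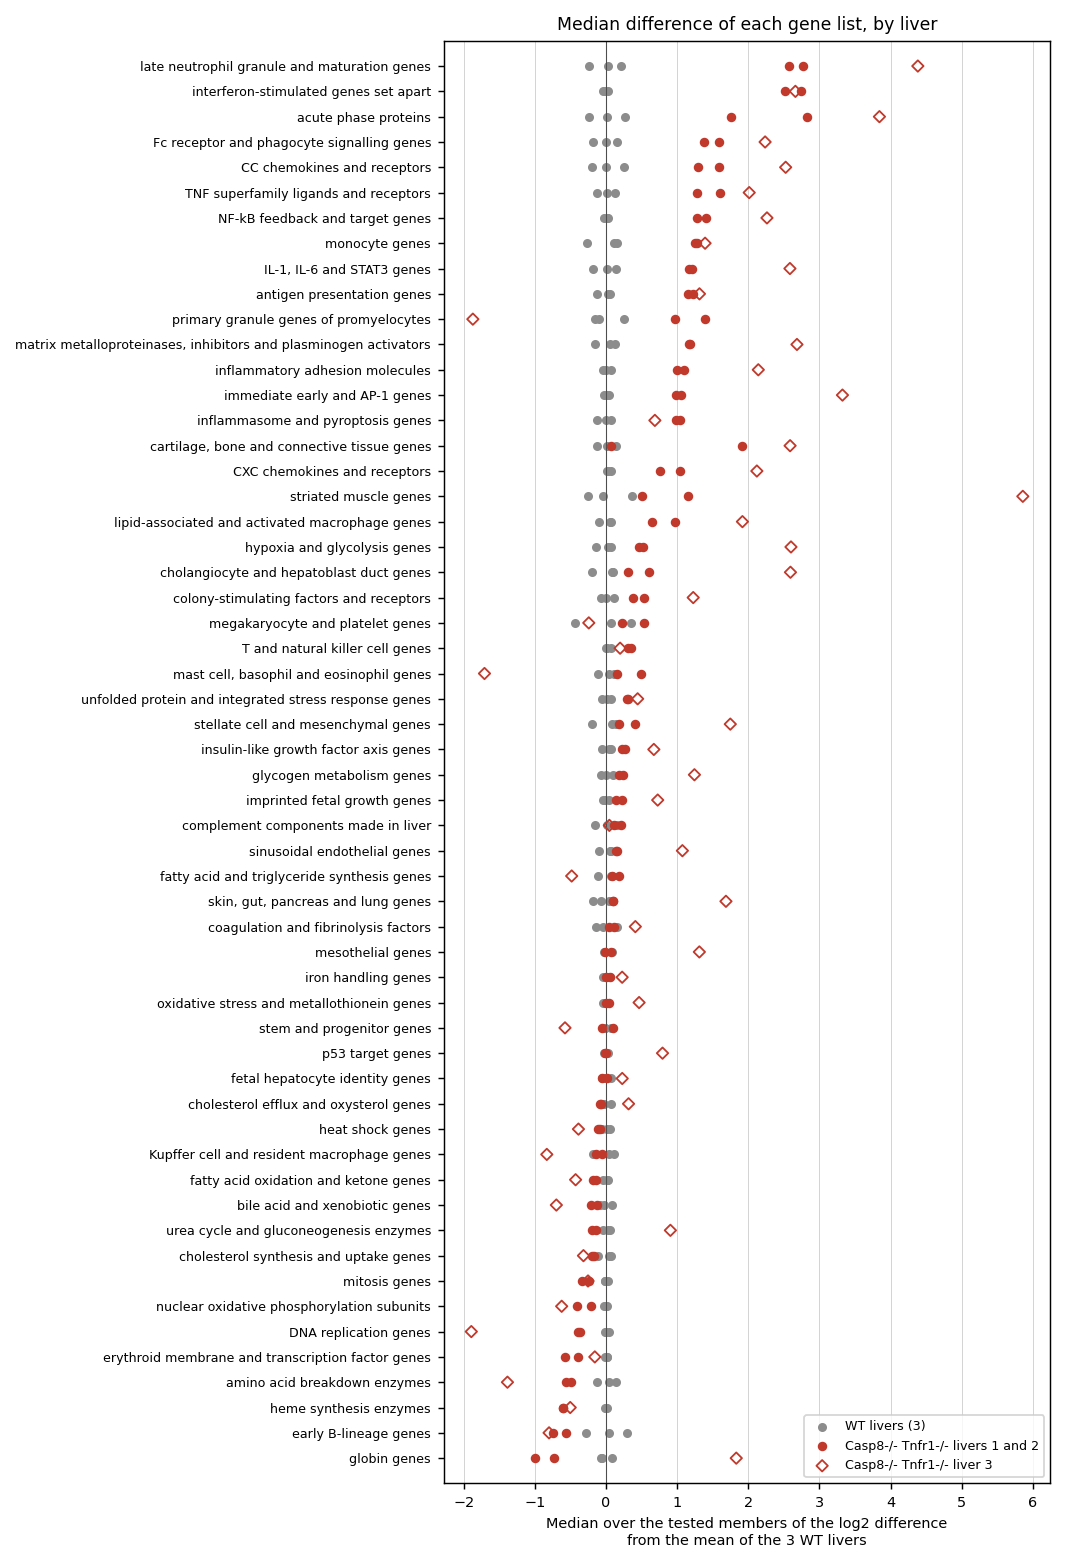
The plot gives, for each of 56 gene lists, the median over its tested members of the log2 difference from the mean of the 3 WT livers (horizontal axis), with 1 point per liver: grey for WT, filled red for Casp8-/- Tnfr1-/- livers 1 and 2 and open diamonds for liver 3. Late neutrophil, acute phase, phagocyte, chemokine and NF-kB lists lie to the right in all 3 Casp8-/- Tnfr1-/- livers, whereas liver 3 parts from livers 1 and 2 for the primary granule list, at -1.87, the globin list, at 1.83, and the striated muscle list, at 5.86.

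Promoter sequences of 6 genes are shown first, a pair from each of 3 programmes that the results turn on: the chemokines Cxcl1 and Cxcl2, the neutrophil granule genes Ngp and Ltf, and the erythroid genes Rhd and Icam4. Each runs 5′ to 3′ on the strand of the gene, over 300 bases around the start of transcription, most of them before it (RefSeq, build GRCm38.p6; all 6 lie on the plus strand), and capitals mark a match, on either strand, to the short sequence named for each pair. For the chemokines it is GGGA and TTNCC with any 1 base between them, a form of the site bound by NF-kB; for the granule genes TTGCNCAA, a form of the site bound by C/EBP factors; and for the erythroid genes AGATAA, a form of the site bound by GATA factors. Cxcl1 (chr5:90890995-90891294), Cxcl2 (chr5:90903649-90903948), Ngp (chr9:110419558-110419857), Ltf (chr9:111019042-111019341), Rhd (chr4:134864286-134864585) and Icam4 (chr9:21029182-21029481) read as follows.
Cxcl1: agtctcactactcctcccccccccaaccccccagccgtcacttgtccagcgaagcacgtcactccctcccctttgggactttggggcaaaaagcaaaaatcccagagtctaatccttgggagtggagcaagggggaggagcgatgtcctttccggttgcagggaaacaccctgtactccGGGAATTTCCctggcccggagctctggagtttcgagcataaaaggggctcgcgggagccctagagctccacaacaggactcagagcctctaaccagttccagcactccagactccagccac
Cxcl2: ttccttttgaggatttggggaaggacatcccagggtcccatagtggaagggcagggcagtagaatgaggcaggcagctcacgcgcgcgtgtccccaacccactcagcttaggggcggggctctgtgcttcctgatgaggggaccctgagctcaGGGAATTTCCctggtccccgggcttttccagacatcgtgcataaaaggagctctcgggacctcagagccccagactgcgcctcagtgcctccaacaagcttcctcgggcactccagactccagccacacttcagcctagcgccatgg
Ngp: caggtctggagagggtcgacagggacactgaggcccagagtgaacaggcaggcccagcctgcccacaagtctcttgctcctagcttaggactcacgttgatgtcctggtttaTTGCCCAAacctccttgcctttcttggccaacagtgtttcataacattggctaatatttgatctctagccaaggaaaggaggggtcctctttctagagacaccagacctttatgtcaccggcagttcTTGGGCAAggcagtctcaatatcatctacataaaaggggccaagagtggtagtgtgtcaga
Ltf: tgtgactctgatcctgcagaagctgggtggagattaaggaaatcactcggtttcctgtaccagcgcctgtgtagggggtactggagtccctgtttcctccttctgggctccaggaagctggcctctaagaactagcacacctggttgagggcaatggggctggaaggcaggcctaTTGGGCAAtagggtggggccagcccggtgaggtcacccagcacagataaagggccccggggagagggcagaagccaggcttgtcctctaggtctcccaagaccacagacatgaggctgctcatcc
Rhd: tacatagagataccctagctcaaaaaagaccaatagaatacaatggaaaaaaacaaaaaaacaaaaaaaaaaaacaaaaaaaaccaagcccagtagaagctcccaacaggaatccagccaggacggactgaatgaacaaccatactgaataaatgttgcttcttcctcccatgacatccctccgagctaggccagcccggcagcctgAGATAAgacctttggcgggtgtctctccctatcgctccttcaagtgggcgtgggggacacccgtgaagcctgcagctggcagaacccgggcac
Icam4: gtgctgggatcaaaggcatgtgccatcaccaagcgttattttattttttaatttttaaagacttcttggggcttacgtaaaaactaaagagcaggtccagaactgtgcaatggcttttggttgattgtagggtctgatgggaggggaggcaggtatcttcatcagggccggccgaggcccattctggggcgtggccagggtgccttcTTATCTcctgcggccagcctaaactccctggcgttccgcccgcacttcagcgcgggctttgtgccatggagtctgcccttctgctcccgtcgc

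In Cxcl1 and Cxcl2 the marked letters are the same, GGGAATTTCC, and begin at base 180 and base 154 of the window. Ngp held a match at base 113 and another, on the opposite strand, at base 240, and Ltf held 1 at base 176. The GATA sequence began at base 208 in both Rhd and Icam4, on the plus strand in Rhd and the opposite strand in Icam4. Of 27025 gene symbols with a promoter in the table, 1.38% held this form of the NF-kB site, 3.37% TTGCNCAA and 12.7% AGATAA. Promoters of 1 chromosome were left out of these shares and of the counts of list members. The NF-kB form was found in 5 of 17 NF-kB feedback and target genes (Nfkbia, Nfkb2, Rel, Bcl3 and Tnip1) and in 3 of 12 CXC chemokines and receptors. TTGCNCAA was found in 6 of 21 late neutrophil genes, of which Ltf, Ngp, Lcn2, Mmp8 and Ptgs2 were called higher, but in 2 of 15 acute phase genes. AGATAA was found in 8 of 22 erythroid genes, among them all 3 that were called lower, and in 2 of 9 heme synthesis genes, neither of them called. These matches describe letters in the window only. The spellings were chosen after their shares were seen, and the lists with earlier results known. The shares therefore do not test an excess over all promoters.

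Genes of late neutrophil maturation rose. Of 22 tested, 18 were called higher, none lower, and all 22 had every Casp8-/- Tnfr1-/- liver above every WT liver, with a median log2 fold change of 3.42. Without liver 3, 15 were called and the median was 2.65, but leaving out any 1 WT liver left 0 to 2 calls. Ltf, which encodes the iron-binding granule protein lactoferrin, gave 132, 108 and 92 CPM in WT and 645, 863 and 1684 CPM in Casp8-/- Tnfr1-/- livers (3.27 ± 0.70, adjusted p = 0.026 by edgeR). Ngp, another secondary granule protein, gave 200.5, 162 and 147 against 1009, 1136 and 2751 CPM (3.27 ± 0.71, adjusted p = 0.0277). The 2 Tnfr1-/- livers, which share 1 of the deletions, gave 118 and 106 CPM for Ltf and 184 and 154 CPM for Ngp, within the WT range. For both genes WT and Casp8-/- Tnfr1-/- livers were far apart, and liver 3 was the highest of the 3. In Casp8-/- Mlkl-/- livers 1, 2 and 3, which share the other deletion, the median difference of the list from WT was 2.18, -0.18 and -0.25.

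Genes of secreted defence proteins and of the neutrophil surface moved in the same direction. Lcn2, a siderophore-binding protein of neutrophil granules and of inflamed liver, gave 78.2, 62.6 and 49 CPM in WT and 1100, 1217 and 3249 CPM in Casp8-/- Tnfr1-/- livers (4.88 ± 0.78, adjusted p = 0.00687). S100a8, a subunit of calprotectin, gave 198, 179 and 146 against 828, 1056 and 3297 CPM (3.31 ± 0.61, adjusted p = 0.013). Anxa1, which encodes the anti-inflammatory protein annexin A1, gave 48.5, 42.5 and 39.5 against 239, 298 and 525 CPM (3.02 ± 0.49, adjusted p = 0.00777). These genes were already several-fold above WT in livers 1 and 2. Cxcr2, the neutrophil receptor for Cxcl1 and Cxcl2, gave 4.07, 3.69 and 2.92 against 20.2, 23.4 and 135 CPM (4.06 ± 0.84, adjusted p = 0.023), and Padi4, which citrullinates histones, 1.27, 1.3 and 0.907 against 9.24, 12.8 and 72.1 CPM (4.75 ± 0.98, adjusted p = 0.0218). Liver 3 carried much of the size of the last pair. The surface protein Cd177, the decoy receptor Il1r2 and the activating receptor Trem1 rose by 4.67, 7.76 and 3.30 on the log2 scale, and by 3.76, 4.99 and 2.55 without liver 3. Of the 4 members not called, Camp, Chil3, Ly6g and Retnlg, all were also above WT in each liver.

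Primary granule genes, which promyelocytes make earlier, followed a different course in liver 3. With all livers 3 of 11 were called higher (Srgn, Cebpe and Hdc), without liver 3, 10 of 11 were, and without any 1 WT liver 0 or 1. Mpo, myeloperoxidase, gave 484, 362 and 336 CPM in WT, 672 and 819.5 CPM in Casp8-/- Tnfr1-/- livers 1 and 2 and 53.4 CPM in liver 3 (adjusted p = 0.73 with all livers by edgeR, and 0.93 on the log2 scale with adjusted p = 0.0248 without liver 3). Elane, neutrophil elastase, gave 86, 65.3 and 48.7 CPM in WT, 115 and 143 CPM in livers 1 and 2 and 14.4 CPM in liver 3. Prtn3, Ctsg, Ms4a3, Gfi1 and Prss57 had the same order: livers 1 and 2 above every WT liver and liver 3 below every WT liver. Cebpe, a transcription factor needed for the passage to secondary granules, gave 6.38, 5.07 and 4.73 CPM in WT and 15.4, 23.3 and 14.5 CPM in the knockout livers and did not show this split (1.72 ± 0.35, adjusted p = 0.0196). The median difference of the list from WT was -1.87 in liver 3 on the log2 scale, while that of the late neutrophil list was 4.38 in the same liver.

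**Figure D2:**
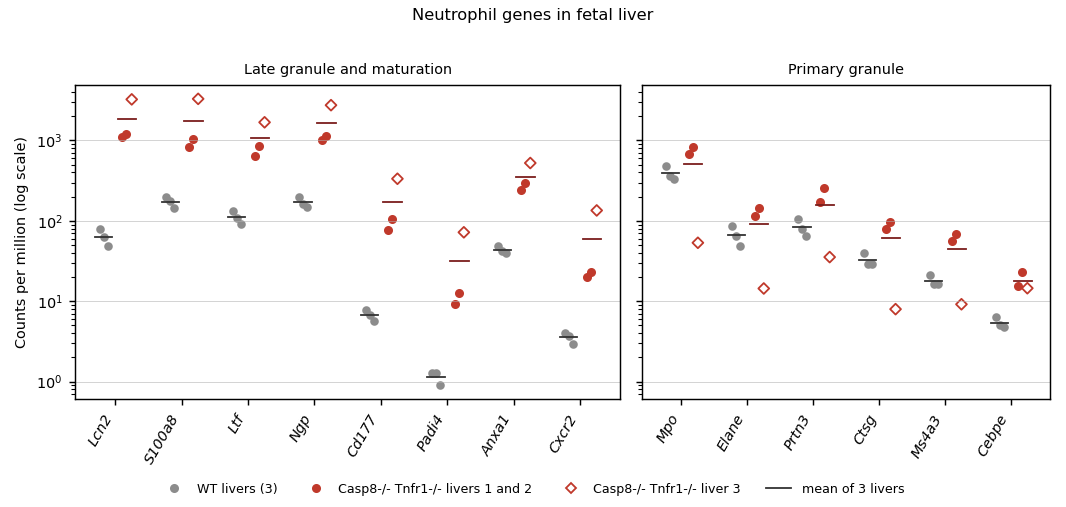
CPM on a log axis of 8 late neutrophil and 6 primary granule genes, with grey points for the WT livers, filled red points for Casp8-/- Tnfr1-/- livers 1 and 2, an open diamond for liver 3 and bars at the mean of 3 livers. The late genes are higher in all 3 knockout livers, whereas Mpo lies at 672 and 819.5 CPM in livers 1 and 2 and at 53.4 CPM in liver 3, and the other primary granule genes except Cebpe are split in the same way.

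Genes of Fc receptor and phagocyte signalling rose almost as a whole: 20 of 22 were called higher and none lower, with a median of 1.67, and 21 were without liver 3 and 9 to 13 without any 1 WT liver. For several of them the 3 knockout livers lay close together. Lcp2, which encodes the adaptor SLP-76, gave 26, 23.9 and 26.2 CPM in WT and 51.2, 53.4 and 51.2 CPM in Casp8-/- Tnfr1-/- livers (1.03 ± 0.11, adjusted p = 0.000968 by edgeR). Plcg2, a phospholipase downstream of immune receptors, gave 33.1, 28.7 and 23.8 against 63.2, 73.1 and 61.9 CPM (1.21 ± 0.15, adjusted p = 0.00218). The Src family kinase Fgr rose by 3.12 on the log2 scale. Subunits of the phagocyte NADPH oxidase moved with them: Cybb, its membrane subunit, gave 53.5, 51.9 and 36.7 against 178, 187 and 218 CPM (2.04 ± 0.32, adjusted p = 0.00651), and Ncf1, a cytosolic subunit, 44.4, 37.9 and 30 against 132, 163 and 232 CPM (2.23 ± 0.33, adjusted p = 0.00537). The exceptions were Fcgr1 and Itgal, which were above WT in livers 1 and 2 only and were called without liver 3.

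Monocyte genes were split. Of 16, 8 were called higher, 9 without liver 3 and 2 to 5 without any 1 WT liver. Plac8 gave 41.9, 35.4 and 28.5 CPM in WT and 124, 137 and 140.1 CPM in Casp8-/- Tnfr1-/- livers (1.92 ± 0.17, adjusted p = 0.000294 by edgeR), Vcan, a proteoglycan made by monocytes and mesenchyme, 16.1, 18.9 and 9.35 against 59.5, 51 and 121 CPM (2.38 ± 0.38, adjusted p = 0.00701), and Cd14, the lipopolysaccharide co-receptor, 1.5, 1.76 and 1.42 against 9.46, 10.4 and 33.7 CPM (3.51 ± 0.57, adjusted p = 0.00723). The groups did not overlap for these genes. Genes that define the mononuclear phagocyte lineage as such were not called: Csf1r, the receptor for CSF-1, gave 114, 113 and 87 CPM in WT and 98.6, 106 and 73.8 CPM in the knockout livers (adjusted p = 0.745), and Irf8 gave 24.5, 22.5 and 19.3 against 30.3, 27.6 and 22.7 CPM (adjusted p = 0.393). Ccr2, the receptor that marks classical monocytes, gave 28.7, 26.4 and 15.9 CPM in WT, 29.9 and 32.6 CPM in livers 1 and 2 and 3.42 CPM in liver 3.

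Among macrophage genes, many of an activated or lipid-associated state rose and 3 that mark Kupffer cells fell. In the activated list 12 of 26 were called higher, 13 without liver 3 and 5 or 6 without any 1 WT liver, and none was lower. Gpnmb, a lysosomal and surface glycoprotein, gave 1.69, 1.55 and 0.789 CPM in WT and 79.2, 108 and 46.4 CPM in Casp8-/- Tnfr1-/- livers (5.85 ± 0.42, adjusted p = 8.48e-05 by edgeR). Acod1, the enzyme that makes itaconate, gave 0.115, 0.0838 and 0.158 against 8.63, 9.19 and 13.3 CPM (6.38 ± 0.39, adjusted p = 5.36e-05). Mmp12, macrophage elastase, gave 0.115, 0.21 and 0.237 against 18.5, 24.9 and 58.4 CPM (7.47 ± 0.55, adjusted p = 9.01e-05). Acod1 and Mmp12 had 2 to 6 reads in each WT liver, Gpnmb 20 to 44, and all 3 were higher in each knockout liver. The scavenger receptor Msr1, at 12.9, 14.6 and 10.1 against 64, 63.3 and 43.9 CPM, and the lectin Lgals3, at 25.7, 24.4 and 17.6 against 85.7, 112 and 228 CPM, rose by 2.19 and 2.65 on the log2 scale. Trem2, often used to mark lipid-associated macrophages, was not called with all livers, at 3.99, 4.61 and 3.04 CPM in WT and 6.13, 9.57 and 4.5 CPM in the knockout livers (adjusted p = 0.149, and 0.0376 without liver 3), and the cathepsins Ctsb and Ctsd overlapped between the groups.

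In the Kupffer cell list of 22 genes 1 was called higher and 3 lower, without liver 3, 2 were higher and 1 lower, and without any 1 WT liver 1 was lower, Folr2. Clec4f, a lectin specific to Kupffer cells in the mouse, gave 13.7, 12.2 and 10.4 CPM in WT and 1.16, 0.551 and 0.114 CPM in Casp8-/- Tnfr1-/- livers (-4.23 ± 1.04, adjusted p = 0.0437 by edgeR, but adjusted p = 0.0537 without liver 3). Folr2, a folate receptor of resident macrophages, gave 4.26, 4.49 and 4.97 against 0.671, 0.688 and 0.741 CPM (-2.70 ± 0.33, adjusted p = 0.00158), with the 3 knockout livers nearly equal. Marco, a scavenger receptor, gave 71.9, 62.5 and 49.1 against 28.8, 21.9 and 13.4 CPM (-1.51 ± 0.39, adjusted p = 0.0495, and adjusted p = 0.0764 without liver 3). Timd4, Cd5l, Vsig4 and Adgre1, the gene of the F4/80 antigen, also lay below every WT liver in each knockout liver without being called, and 8 of the 22 genes did so in all. Others did not part: C1qa gave 45.9, 37.6 and 33.4 against 39.4, 32.2 and 22.9 CPM (adjusted p = 0.616), and Vcam1, Mertk and Mrc1 overlapped too. The chemokine Ccl24 was the member called higher, at 6.49, 5.32 and 6.63 CPM in WT and 23, 24.7 and 44.9 CPM in the knockout livers (2.33 ± 0.28, adjusted p = 0.00158).

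**Figure D3:**
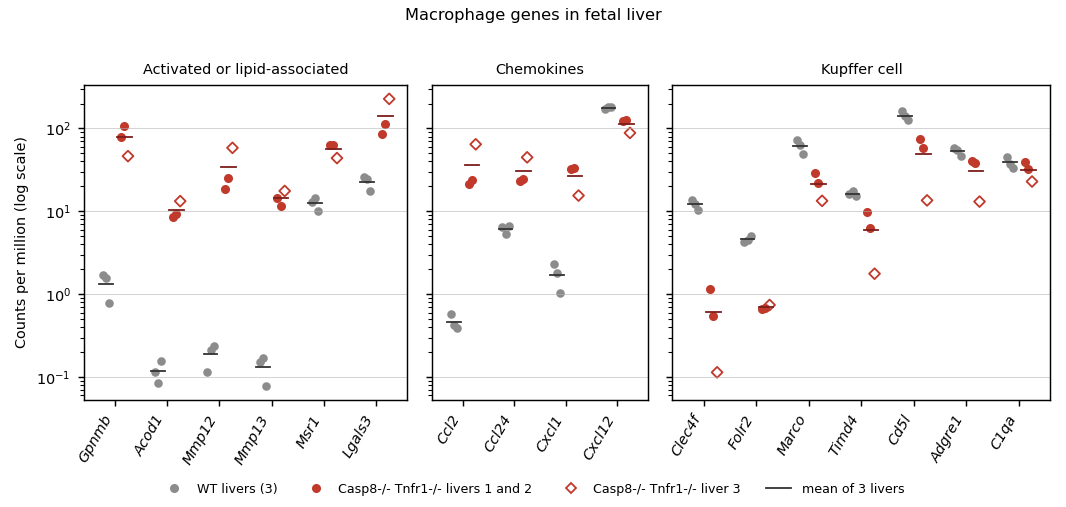
CPM on a log axis of 6 activated macrophage genes, 4 chemokines and 7 Kupffer cell genes, with points by liver as in the plot of neutrophil genes and bars at the mean of 3 livers. Gpnmb, Acod1, Mmp12 and Mmp13 lie at 1.69 CPM or less in WT and between 8.63 and 108 CPM in the knockout livers, while Clec4f, Folr2 and Marco lie below WT and C1qa overlaps with it.

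Many chemokine genes rose too. In the CC list 8 of 16 were called higher and none lower, 8 without liver 3 and 6 or 7 without any 1 WT liver, with a median of 2.37. Ccl2, which attracts monocytes, gave 0.576, 0.419 and 0.395 CPM in WT and 21.4, 23.8 and 64.5 CPM in Casp8-/- Tnfr1-/- livers (6.28 ± 0.51, adjusted p = 0.000164 by edgeR). Ccl7, another ligand of Ccr2, gave 0.154, 0.21 and 0 against 8.24, 9.29 and 15.6 CPM (6.46 ± 0.66, adjusted p = 0.000675). Ccl4 gave 0.0768, 0.21 and 0.276 against 10.1, 11.46 and 4.79 CPM (5.53 ± 0.51, adjusted p = 0.000358). The 2 Tnfr1-/- livers gave 0.328 and 0.304 CPM for Ccl2, below the WT livers. In Casp8-/- Mlkl-/- livers 1, 2 and 3 the median difference of the list from WT was 0.60, -0.14 and -0.39 on the log2 scale. Of the receptors, Ccr1 rose (8.49, 6.41 and 7.5 against 34, 37.5 and 136 CPM, 3.21 ± 0.53, adjusted p = 0.00792) and Ccr2 and Ccr7 were not called.

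In the CXC list 6 of 14 were called higher, 4 of them outside the interferon list, and 1 lower; 5 of 13 were higher and 1 lower without liver 3, and 2 or 3 were higher without any 1 WT liver. Cxcl1, a neutrophil attractant with the NF-kB sequence shown above, gave 2.3, 1.8 and 1.03 CPM in WT and 32 and 33.2 CPM in Casp8-/- Tnfr1-/- livers 1 and 2, while liver 3, the lowest of the 3, lay 3.20 above WT on the log2 scale (3.97 ± 0.45, adjusted p = 0.0011 by edgeR). Cxcl2 gave 0.0384, 0 and 0.0789 CPM in WT, which is at most 2 reads a liver, and 2.35, 1.93 and 34.3 CPM in the knockout livers (adjusted p = 0.0135, and 0.00161 without liver 3). Cxcl10, which interferon also induces, had the smallest p of the list, at 5.38, 5.24 and 4.81 CPM in WT and 125, 104 and 92.7 CPM in the knockout livers, and Cxcl9, of the same kind, was called too. The gene called lower was Cxcl12, which stromal cells make and which holds blood precursors in place, with 172, 183 and 179.9 CPM in WT and 123, 128 and 88.4 CPM in the knockout livers (-0.66 ± 0.16, adjusted p = 0.0391, and -0.50 without liver 3). Its receptor Cxcr4 was not called (19.7, 16.7 and 11.2 against 32, 39.6 and 37.3 CPM, adjusted p = 0.0692).

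NF-kB feedback and target genes were called higher in 17 of 21 cases, 16 without liver 3 and 6 to 10 without any 1 WT liver, and none was called lower, with a median of 1.74. The called members included the transcription factor subunits and their inhibitors alike. This list also lay above WT in Casp8-/- Mlkl-/- livers 1, 2 and 3, with median differences of 0.71, 0.52 and 0.42 on the log2 scale. In the 2 Tnfr1-/- livers the median differences were -0.07 and -0.08. Zc3h12a, an RNase that destroys cytokine transcripts, gave 2, 2.18 and 2.45 CPM in WT and 13, 10.9 and 16.4 CPM in Casp8-/- Tnfr1-/- livers (2.60 ± 0.23, adjusted p = 0.000271 by edgeR). Irak3, a brake on Toll-like and IL-1 receptor signals, gave 3.99, 3.69 and 3.98 against 11.4, 10.9 and 10.1 CPM (1.48 ± 0.18, adjusted p = 0.00167). Nfkbie, an inhibitor of NF-kB, gave 2.88, 2.26 and 2.52 against 6.96, 6.5 and 7.58 CPM (1.45 ± 0.19, adjusted p = 0.00242). The 3 knockout livers lay close together for these genes. Bcl3, a nuclear cofactor of NF-kB, rose by 2.61 on the log2 scale, and Relb, Nfkb1, Nfkb2, Rel, Nfkbia, Tnfaip3, Birc3 and Tnip1 were called too. Sod2 and Tnfaip2, often listed as targets, had every knockout liver below every WT liver and were not called (76.5, 82.6 and 75.1 against 72.5, 69.9 and 41.7 CPM for Sod2, adjusted p = 0.301).

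The cytokines and receptors upstream rose in part. Tnf gave 0.96, 0.461 and 0.237 CPM in WT and 4.61, 3.99 and 2.17 CPM in Casp8-/- Tnfr1-/- livers (2.69 ± 0.55, adjusted p = 0.0203 by edgeR), so RNA of the ligand was higher in livers labelled as lacking its receptor TNFR1. In the TNF superfamily list 7 of 17 were called higher, 6 without liver 3 and 0 to 2 without any 1 WT liver. For 16 of 17, every Casp8-/- Tnfr1-/- liver lay above every WT liver. The median difference of this list from WT was 1.15, 0.41 and 0.37 in Casp8-/- Mlkl-/- livers 1, 2 and 3. It was 0.01 and 0.03 in the 2 Tnfr1-/- livers. Tnfsf14 gave 2.69, 2.18 and 2.52 against 5.19, 5.85 and 5.13 CPM (1.13 ± 0.20, adjusted p = 0.0101), and Tnfrsf11a, the gene of RANK, 2.04, 2.26 and 2.64 against 7.66, 7.12 and 3.76 CPM (1.42 ± 0.31, adjusted p = 0.0275). Tnfrsf9, a costimulatory receptor, and Tnfrsf26 were called too (adjusted p = 0.023 and 0.0268). Fas, the death receptor that signals through caspase-8, lay above WT but was not called (3.73, 3.1 and 3.55 against 7.35, 6.3 and 7.75 CPM, adjusted p = 0.273).

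In the IL-1, IL-6 and STAT3 list 11 of 25 were called higher, 13 without liver 3 and 4 or 5 without any 1 WT liver. Il1rn, the secreted antagonist of IL-1, gave 18.8, 15.47 and 13.2 CPM in WT and 114, 92.8 and 94.5 CPM in Casp8-/- Tnfr1-/- livers (2.66 ± 0.30, adjusted p = 0.00111 by edgeR). Il1r1, the signalling receptor of IL-1, gave 43.1, 47.7 and 47.4 against 106, 104 and 182 CPM (1.50 ± 0.24, adjusted p = 0.00729), and Il6st, the gp130 subunit shared by IL-6 family receptors, 54.4, 58.6 and 47 against 139, 138 and 236 CPM (1.68 ± 0.31, adjusted p = 0.014). Il1b, the cytokine itself, gave 0.154, 0.126 and 0.197 against 2.87, 2.31 and 4.22 CPM (4.25 ± 0.65, adjusted p = 0.00586). The oncostatin M receptor Osmr rose by 3.93 on the log2 scale, or 2.68 without liver 3. Il6 was at the edge of detection, with 0.422, 0.126 and 0 CPM in WT and 0.641, 0.62 and 1.43 CPM in the knockout livers (adjusted p = 0.139). Il1rl1, the IL-33 receptor, was called lower without liver 3 (46.4, 49.6 and 47.6 against 36.1, 33.4 and 17.3 CPM).

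Of 11 genes for colony-stimulating factors and their receptors 5 were called higher, with and without liver 3, and 3 or 4 without any 1 WT liver. Csf1, the growth factor of macrophages, gave 29.7, 30.4 and 28.1 CPM in WT and 69.9, 66.9 and 68.8 CPM in Casp8-/- Tnfr1-/- livers (1.22 ± 0.11, adjusted p = 0.000346 by edgeR), so that the livers of each group were nearly equal. The common beta chain Csf2rb gave 28, 25.4 and 20.8 against 77.3, 86.7 and 144 CPM (2.05 ± 0.25, adjusted p = 0.00155), and Csf3r, the receptor for G-CSF, 13.4, 12.8 and 9.82 against 35.1, 38.1 and 197 CPM (2.90 ± 0.62, adjusted p = 0.0256). Csf2rb2, a near copy of Csf2rb, and Csf2ra rose by 2.53 and 1.79 on the log2 scale. The ligands Csf2 and Csf3 were too low to be tested, with no read of Csf2 in any of the 6 livers and 10 reads of Csf3 in liver 3. Kitl, Flt3l, Thpo and Epo, growth factors of stem cells, platelets and red cells, were not called.

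Adhesion molecules rose in 9 of 16 cases, 8 of them outside the interferon list, in 9 without liver 3 (8 in both fits) and in 6 to 8 without any 1 WT liver. Cd44, a hyaluronan receptor, gave 82.9, 83.7 and 84.3 CPM in WT and 154, 155 and 156 CPM in Casp8-/- Tnfr1-/- livers (0.89 ± 0.10, adjusted p = 0.00118 by edgeR), with almost no spread within either group. Icam1, the endothelial ligand of leukocyte integrins, gave 20.3, 20.5 and 21.5 against 58.3, 58.6 and 88.5 CPM (1.72 ± 0.20, adjusted p = 0.00136). Selp, P-selectin of endothelium and platelets, gave 1.73, 0.713 and 1.54 against 9.49, 10.5 and 26.8 CPM (3.54 ± 0.49, adjusted p = 0.0033). All 3 were higher in each knockout liver, as was Madcam1, an addressin for leukocytes, which rose by 4.08 on the log2 scale. Sele, E-selectin, gave 0.0384, 0 and 0.0394 CPM in WT, at most 1 read a liver, and 2.99, 2.75 and 26.4 CPM in the knockout livers (adjusted p = 0.00479). Other endothelial genes gave few calls: of 31 sinusoidal endothelial genes 2 were called higher (3 without liver 3, with Flt1), Fcgr2b (6.22, 5.66 and 5.6 against 18.5, 20.6 and 37.7 CPM, 2.13 ± 0.44, adjusted p = 0.0214) and Pecam1 (30.3, 31.6 and 29.7 against 51.7, 49.9 and 125 CPM, 1.30 ± 0.32, adjusted p = 0.0449), and Lyve1 gave 77, 76 and 67.7 against 81.5, 78.3 and 90.8 CPM (adjusted p = 0.451).

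Of 21 matrix metalloproteinases, their inhibitors and plasminogen activators 10 were called higher with all livers and 10 without liver 3, with 9 called in both fits. Without any 1 WT liver 3 to 5 were called. Mmp13, a collagenase, gave 0.154, 0.168 and 0.0789 CPM in WT and 14.4, 11.5 and 17.6 CPM in Casp8-/- Tnfr1-/- livers (6.72 ± 0.45, adjusted p = 6.44e-05 by edgeR). Timp1, an inhibitor of these proteases, gave 1.84, 1.51 and 2.09 against 14.9, 19.5 and 52.5 CPM (3.99 ± 0.46, adjusted p = 0.00124), and Plau, urokinase, 8.72, 8.3 and 6.98 against 18.1, 18 and 15.7 CPM (1.11 ± 0.18, adjusted p = 0.00839). The groups were apart for each of them. Adam8 rose by 5.04 on the log2 scale, and by 2.89 without liver 3. Mmp2 and Timp2, which mesenchymal cells make, overlapped between the groups.

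Stellate cell and mesenchymal genes gave 1 call of 26, Ngfr, a neurotrophin receptor found on these cells (8.14, 8.55 and 6.79 CPM in WT and 21.9, 19.4 and 30.7 CPM in Casp8-/- Tnfr1-/- livers, 1.61 ± 0.21, adjusted p = 0.00242 by edgeR). The collagen gene Col1a1 was set apart by liver 3 alone, with 347, 343 and 213 CPM in WT, 386 and 267 CPM in livers 1 and 2 and 1967 CPM in liver 3. Without liver 3 the calls were 4, with Pdgfrb, Des and Tagln. Des is also in the striated muscle list, which lay above WT in livers 1 and 2. The part of muscle in these calls was not tested. The median of the stellate and mesenchymal list was 0.98 with all livers and 0.25 without liver 3. In the cholangiocyte list, with a median of 1.49 that became 0.32 without liver 3, 2 of 16 were called higher, Cldn4 among them (3 higher and 1 lower without liver 3, with Jag1 higher and Tspan8 lower), and none of 12 mesothelial genes was.

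Among genes that hepatocytes express, acute phase genes rose while those of hepatocyte identity were not called. Of 23 acute phase genes 9 were called higher, 10 without liver 3 and 3 or 4 without any 1 WT liver, and 22 had every Casp8-/- Tnfr1-/- liver above every WT liver, with a median of 2.97. The median difference of the list from WT was 2.82, 1.75 and 3.84 in Casp8-/- Tnfr1-/- livers 1, 2 and 3. Casp8-/- Mlkl-/- liver 1 was also high, with 2.23, while livers 2 and 3 of that genotype gave -0.24 and 0.04. The 2 Tnfr1-/- livers gave 0.17 and 0.26. Cp, ceruloplasmin, gave 117, 77.3 and 49.5 CPM in WT and 1114, 1036 and 1219 CPM in Casp8-/- Tnfr1-/- livers (3.79 ± 0.91, adjusted p = 0.0408 by edgeR). Steap4, a metalloreductase induced by inflammation, gave 14.4, 15.51 and 11.4 against 169.9, 158 and 109 CPM (3.40 ± 0.49, adjusted p = 0.00423), and Saa3, an inducible serum amyloid A protein, 1.15, 1.51 and 0.907 against 62.6, 72.3 and 184 CPM (6.48 ± 1.35, adjusted p = 0.0233). The 3 knockout livers were each several-fold above WT. Serpina3n and Serpina3g, members of a cluster of similar inhibitor genes whose reads may be shared, rose by 7.41 and 5.91 on the log2 scale, and Orm1 was seen in at most 1 read in any WT liver and at 3.54, 4.85 and 29.5 CPM in the knockout livers (adjusted p = 0.0176).

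Several classical acute phase proteins were above WT in every knockout liver but missed the threshold. Hp, haptoglobin, gave 146, 97.5 and 62 CPM in WT and 968, 1094 and 2048 CPM in Casp8-/- Tnfr1-/- livers (adjusted p = 0.0691 by edgeR), Fga, a fibrinogen chain, 1622, 1236 and 1066 against 3293, 3055 and 8772 CPM (adjusted p = 0.152), and Hamp, the iron hormone hepcidin, 12.1, 11.8 and 3.87 against 67.1, 69.2 and 184 CPM (adjusted p = 0.0522). Cebpd, a transcription factor of the acute phase response, was called, at 2.38, 3.52 and 2.33 against 6.5, 9.26 and 31.6 CPM (2.52 ± 0.58, adjusted p = 0.0346). Among 23 coagulation factors only the protein S gene Pros1 was called higher (24, 24 and 26.5 against 39.1, 39.4 and 40.5 CPM, 0.68 ± 0.14, adjusted p = 0.026).

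None of 31 hepatocyte identity genes was called in either direction, and their median was 0.0034. Alb gave 35070, 30180 and 26970 CPM in WT and 24750, 22880 and 47190 CPM in Casp8-/- Tnfr1-/- livers, Afp 26060, 23650 and 24030 against 22290, 23130 and 35670 CPM, and the regulator Hnf4a 207, 211 and 215 against 241, 225 and 121 CPM. None of 20 urea cycle and gluconeogenesis genes, 23 fatty acid oxidation genes, 21 fatty acid synthesis genes, 25 cholesterol synthesis genes, 23 bile acid and xenobiotic genes or 17 iron handling genes was called with all livers at an adjusted p below 0.05 by edgeR. Without liver 3, Elovl5 and Dgat1, 2 of the fatty acid synthesis genes, were called higher and Steap3, 1 of the iron handling genes, lower. Among these, Hadha, a mitochondrial enzyme of fatty acid oxidation, gave 266, 266 and 269.9 against 238, 227 and 156 CPM (adjusted p = 0.32) and the bile salt pump Abcb11 52.5, 44.8 and 40.5 against 19.1, 17 and 5.93 CPM (adjusted p = 0.128). Every knockout liver was below every WT liver for both, as they were for 12 of the 23 fatty acid oxidation genes, 11 of the 25 cholesterol synthesis genes and 10 of the 23 bile acid genes, without a call. Hmgcs1, of cholesterol synthesis, gave 578, 612 and 599 against 477, 490.0 and 487 CPM (adjusted p = 0.413). Scd2, a fatty acid desaturase, gave 1557, 1562 and 1101 against 1446, 1388 and 699 CPM, and Tfrc, the transferrin receptor, 2495, 2618 and 2786 against 2049, 1917 and 3077 CPM, and both overlapped between the groups.

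A few enzymes fell sharply. Car3, a carbonic anhydrase, gave 214, 214 and 178 CPM in WT and 26.8, 19.4 and 23.5 CPM in Casp8-/- Tnfr1-/- livers (-3.12 ± 0.17, adjusted p = 3.82e-05 by edgeR), the smallest p of any gene called lower among the 15 largest falls called with and without liver 3, with the 2 Tnfr1-/- livers at 228 and 242 CPM. The 3 Casp8-/- Mlkl-/- livers gave 120.8, 126.6 and 154.5 CPM, below every WT liver. Carboxylesterases of 1 gene cluster on chromosome 8, whose similar sequences may share reads, were among these 15 falls too. Ces1d gave 56.7, 49.5 and 37.2 against 6.13, 3.48 and 5.07 CPM (-3.29 ± 0.67, adjusted p = 0.0204), Ces1g 12.2, 11.7 and 10.7 against 2.87, 2.03 and 1.03 CPM (-2.52 ± 0.41, adjusted p = 0.00719) and Ces1e 9.03, 7.5 and 6.98 against 1.34, 1.03 and 0 CPM (-3.22 ± 0.81, adjusted p = 0.0473). Every Casp8-/- Tnfr1-/- liver was far below every WT liver. The 3 Casp8-/- Mlkl-/- livers gave 106.8, 18.13 and 17.96 CPM for Ces1d. They gave 9.162, 4.039 and 4.892 CPM for Ces1g and 13.01, 3.545 and 4.28 CPM for Ces1e. Fcna, ficolin A, a lectin of the complement system that Kupffer cells are known to make, fell too (54.4, 52.1 and 42 against 13.8, 11.8 and 9.23 CPM, -2.09 ± 0.29, adjusted p = 0.00333), the only 1 of 21 complement genes called. In the amino acid breakdown list 15 of 25 genes had every knockout liver below every WT liver, the median was -0.80 (-0.52 without liver 3), and 1 was called, the lysine-degrading enzyme Aass (71, 82.5 and 81.1 against 55.5, 45.8 and 29.2 CPM, -0.84 ± 0.22, adjusted p = 0.04995), while without liver 3, 2 were, with Gldc. In the glycogen list Gyg, glycogenin, was called higher (30.9, 32.4 and 34.4 against 43.3, 48.5 and 74.7 CPM, 0.77 ± 0.19, adjusted p = 0.0435), 1 of 19.

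**Figure D4:**
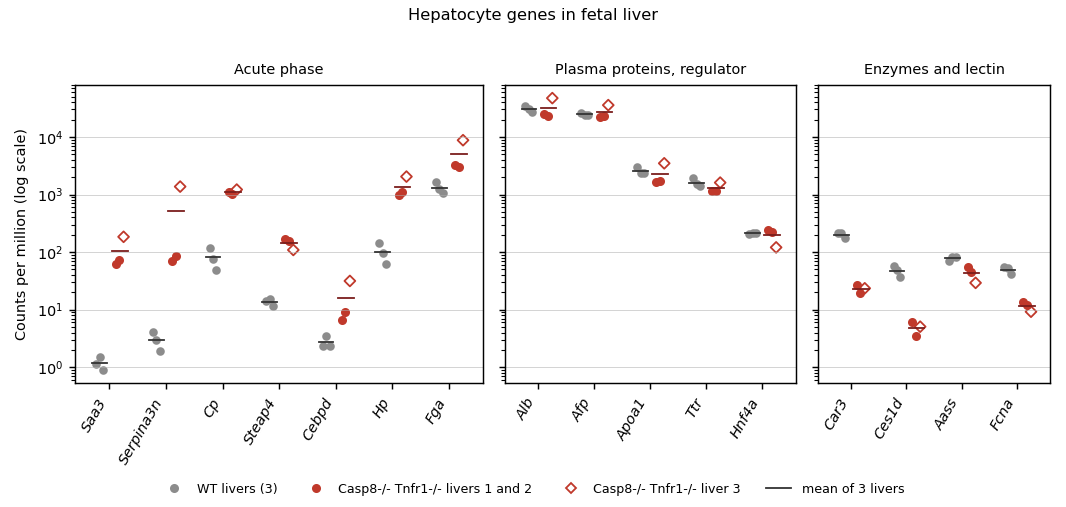
CPM on a log axis of 7 acute phase genes, 4 genes of plasma proteins with the regulator Hnf4a, 3 enzyme genes and the lectin gene Fcna, with points by liver as in the plot of neutrophil genes and bars at the mean of 3 livers. Acute phase genes lie above WT in each knockout liver, Alb, Afp, Apoa1, Ttr and Hnf4a overlap with WT, and Car3, Ces1d, Aass and Fcna lie below it, Car3 at 26.8, 19.4 and 23.5 CPM.

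Erythroid genes lay lower in livers 1 and 2 and were divided in liver 3. Of 29 genes of the red cell membrane and of erythroid transcription factors 3 were called lower, 6 without liver 3 and none without any 1 WT liver. In 2 fits chosen after seeing the data, 8 were lower without Casp8-/- Mlkl-/- liver 1 and 27 in the 2 genotypes alone without liver 3. Over all genes these fits gave 368 and 2085 lower. No member was called higher, and 15 had every Casp8-/- Tnfr1-/- liver below every WT liver, with a median of -0.32. In liver 3 alone, 15 of the 29 lay below every WT liver and 12 lay above. The summed level of the list was 30700, 30800 and 30100 CPM in WT. It was 23270, 20800 and 33390 CPM in Casp8-/- Tnfr1-/- livers. Rhd, which encodes an Rh blood group protein, gave 628, 609.6 and 580.2 CPM in WT and 358, 369.6 and 371 CPM in Casp8-/- Tnfr1-/- livers (-0.73 ± 0.14, adjusted p = 0.0169 by edgeR). Icam4, an adhesion molecule of erythroblasts, gave 124, 111 and 110.1 against 60.2, 59.5 and 27.8 CPM (-1.22 ± 0.28, adjusted p = 0.0343), and Trim10, a factor of erythroid maturation, 683, 677 and 649 against 449.9, 429 and 294 CPM (-0.78 ± 0.19, adjusted p = 0.0431). The 2 Tnfr1-/- livers gave 557 and 514 CPM for Rhd, between the groups. In Casp8-/- Mlkl-/- livers 1, 2 and 3 the median difference of the list from WT was -0.60, -0.11 and -0.22 on the log2 scale. Klf1 and Gata1, master regulators of the lineage, lay lower in every knockout liver without passing the threshold (332, 324 and 305 against 181, 182 and 81 CPM for Klf1, adjusted p = 0.0754; 296, 293 and 285 against 187, 188 and 96.5 CPM for Gata1, adjusted p = 0.0796).

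Of 12 heme synthesis genes 4 were called lower, 8 without liver 3, with 3 in both fits, and none without any 1 WT liver. None was higher, and the median was -0.53. Without Casp8-/- Mlkl-/- liver 1, 5 were lower, and in the 2 genotypes alone without liver 3, 12 were. The list also lay below WT in Casp8-/- Mlkl-/- livers 1, 2 and 3, with median differences of -0.62, -0.21 and -0.34. The 2 Tnfr1-/- livers gave -0.08 and -0.16. Slc25a38, the mitochondrial glycine carrier, gave 169.8, 173 and 169 CPM in WT and 92, 106 and 119.8 CPM in Casp8-/- Tnfr1-/- livers (-0.69 ± 0.16, adjusted p = 0.0324 by edgeR). Enzymes of the middle of the pathway fell with it. Alad gave 730.5, 671 and 667 against 440.5, 448 and 275 CPM (-0.83 ± 0.20, adjusted p = 0.0435), Uros 234, 232 and 240.0 against 142, 139 and 129 CPM (-0.79 ± 0.20, adjusted p = 0.0475) and Urod 678, 688 and 715 against 428, 459 and 472 CPM (-0.61 ± 0.14, adjusted p = 0.0343). The first and last enzymes parted by liver: Alas2 gave 2198, 2075 and 2128 CPM in WT, 1620 and 1539 CPM in livers 1 and 2 and 5730 CPM in liver 3, and Fech 1474, 1482 and 1552 CPM in WT, 1151 and 1037 CPM in livers 1 and 2 and 2122 CPM in liver 3. Globin genes had the same split. Hbb-bs, an adult beta globin, gave 32070, 26650 and 25880 CPM in WT, 19740 and 19500 CPM in livers 1 and 2 and 99920 CPM in liver 3. With all livers none of 7 globin genes was called, and their median was 0.63. Without liver 3 the median was -0.85 and 3 were called lower, or 7 with the 2 genotypes alone in that fit. Reads may be divided among near-identical globin copies.

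**Figure D5:**
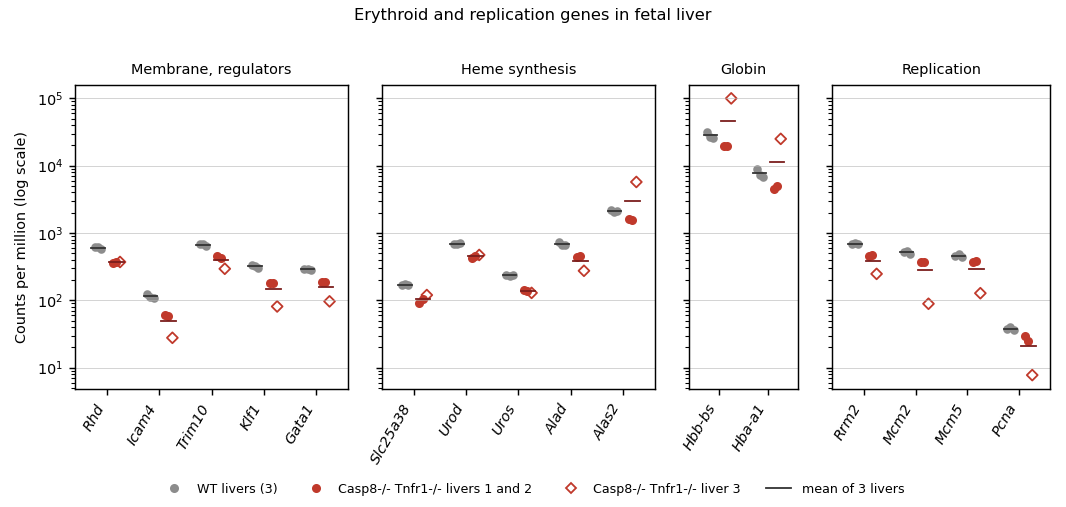
CPM on a log axis of 5 erythroid genes, 5 heme synthesis genes, 2 globin genes and 4 DNA replication genes, with points by liver as in the plot of neutrophil genes and bars at the mean of 3 livers. Livers 1 and 2 lie below WT for all 16 genes, whereas liver 3 is above WT for Alas2, Hbb-bs and Hba-a1 and lowest for the replication genes, with Mcm2 at 88.9 CPM.

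Cell cycle genes were lower in level without passing the test. Of 32 DNA replication genes none was called with all livers by edgeR and 2 were called lower without liver 3, but 31 had every Casp8-/- Tnfr1-/- liver below every WT liver, with a median of -0.72. Rrm2, a subunit of ribonucleotide reductase, gave 691, 719 and 678 CPM in WT and 450.0, 469 and 247 CPM in the knockout livers (-0.84 ± 0.24, adjusted p = 0.0691, and adjusted p = 0.0249 without liver 3). Mcm2, part of the replicative helicase, gave 529.6, 543 and 488 against 369, 374 and 88.9 CPM (-0.91 ± 0.44, adjusted p = 0.233). Liver 3 lay lowest, with a list median of -1.89 against WT. Of 29 mitosis genes none was called with all livers and 1, Ube2c, was called lower without liver 3, and 20 lay below WT in every knockout liver; Mki67 gave 3330, 3368 and 3428 against 3357, 2571 and 4521 CPM and Top2a 999.6, 997 and 994 against 948, 846 and 503 CPM. Subunits of oxidative phosphorylation encoded in the nucleus behaved alike: none of 37 was called with all livers, 4 were called lower without liver 3, and 27 lay below WT in every knockout liver, among them Cox4i1 (401, 391 and 387 against 282, 319.7 and 293 CPM, adjusted p = 0.101) and Atp5b (1459, 1471 and 1422 against 1178, 1251 and 941 CPM, adjusted p = 0.199).

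Glycolysis and hypoxia genes were called higher in 5 of 26 cases, in 10 without liver 3, where the glucose carrier Slc2a1 was called lower, and in 0 or 1 without any 1 WT liver. Hk3, a hexokinase of myeloid cells, gave 19.3, 17 and 13.6 CPM in WT and 33.2, 39.5 and 41.5 CPM in Casp8-/- Tnfr1-/- livers (1.20 ± 0.21, adjusted p = 0.00966 by edgeR), and Pfkfb4 9.14, 9.47 and 8.88 against 18.3, 22.4 and 44.7 CPM (1.63 ± 0.32, adjusted p = 0.0173). Hk2, another hexokinase, and Pfkp, a phosphofructokinase, rose by 2.21 and 3.13 on the log2 scale. Other hypoxia genes were high in liver 3 and much nearer to WT in the others. Vegfa gave 72.8, 67.4 and 68.1 CPM in WT, 89.4 and 82.9 CPM in livers 1 and 2 and 923 CPM in liver 3, and Egln3 5.57, 4.99 and 3.67 CPM in WT, 13.1 and 12.6 CPM in livers 1 and 2 and 383 CPM in liver 3. The list median was 1.57 with all livers and 0.49 without liver 3. Of 22 immediate early genes 5 were called higher (Egr2, Egr3, Atf3, Nr4a1 and Fos), and 1 or 2 without any 1 WT liver. Without liver 3, 6 of 21 were higher, with Klf6, and 2 were lower, Ier3 and Btg2. Ier3 gave 17.9, 17.5 and 20.8 CPM in WT, 12.1 and 13 CPM in livers 1 and 2 and 143 CPM in liver 3, so that liver 3 lay on the other side of WT. Fos gave 2.23, 1.89 and 2.45 CPM in WT, 7.6 and 6.88 CPM in livers 1 and 2 and 165 CPM in liver 3. The list median was 2.19 with all livers and 0.995 without liver 3, and muscle transcripts and these genes were high in the same liver; the part of muscle in the result was not tested.

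Inflammasome and pyroptosis genes were called higher in 8 of 18 cases, 7 of them outside the interferon list, in 12 without liver 3 and in 6 without any 1 WT liver. Card9, an adaptor of C-type lectin receptors, gave 7.22, 7.04 and 6.04 CPM in WT and 17.9, 21.9 and 26.8 CPM in Casp8-/- Tnfr1-/- livers (1.71 ± 0.19, adjusted p = 0.00104 by edgeR). Mefv, which encodes pyrin, gave 1.27, 1.17 and 1.1 against 6.65, 8.54 and 9.74 CPM (2.81 ± 0.34, adjusted p = 0.00167), and Gsdmd, the pore-forming gasdermin D, 18.4, 16.1 and 14 against 47.4, 48.6 and 53.2 CPM (1.62 ± 0.23, adjusted p = 0.00355). The inflammatory caspase Casp4 rose by 4.43 on the log2 scale. The adaptor Pycard and the sensor Nlrp3 overlapped with WT through liver 3 and were called without it. Il18 was not called (6.34, 5.53 and 4.85 against 5.34, 4.44 and 3.36 CPM, adjusted p = 0.491).

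Antigen presentation genes divided by class. Of 23 tested, 12 were called higher, 6 of these outside the interferon list, 14 without liver 3 and 6 or 7 without any 1 WT liver. B2m, the light chain of class I molecules, gave 248, 258 and 253 CPM in WT and 638, 588 and 1002 CPM in Casp8-/- Tnfr1-/- livers (1.55 ± 0.28, adjusted p = 0.0116 by edgeR), and Tapbp, tapasin of the peptide-loading complex, 70.9, 65.8 and 68 against 198, 191 and 172 CPM (1.45 ± 0.17, adjusted p = 0.0011). Tap1, Nlrc5 and Psmb8, which are also interferon genes, had the smallest p-values of the list, with Tap1 at 10.6, 10.8 and 7.85 against 71, 61.8 and 61.5 CPM. The class II genes H2-Aa, H2-Ab1, H2-Eb1, H2-DMa, H2-DMb1 and Cd74 and their regulator Ciita were not called; H2-Aa gave 3.34, 3.31 and 3.08 against 1.92, 1.48 and 1.31 CPM (adjusted p = 0.265). Reads of class I genes may be shared among similar copies.

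With all livers, stress pathways gave few calls. Of 25 p53 targets 1 was higher, Pmaip1, the gene of the cell death protein NOXA (4.3, 3.02 and 3.75 CPM in WT and 11.47, 10.9 and 23.9 CPM in Casp8-/- Tnfr1-/- livers, 2.06 ± 0.31, adjusted p = 0.00569 by edgeR), while Cdkn1a gave 14.9 and 16.6 CPM in livers 1 and 2 and 229.9 CPM in liver 3 against 8.18, 7.46 and 8.13 CPM in WT. Of 20 oxidative stress genes 2 were higher, the cystine carrier Slc7a11 (0.845, 0.754 and 1.46 against 7.41, 7.99 and 5.41 CPM, 2.76 ± 0.40, adjusted p = 0.00473) and G6pdx (87.7, 87.2 and 85.2 against 129, 135 and 124 CPM). Of 25 unfolded protein response genes 2 were higher, Atf3 and Creld2, and none of 12 heat shock genes was, Hsp90ab1 giving 1415, 1457 and 1326 against 1673, 1591 and 1148 CPM. Without liver 3, 1 p53 target was higher and 2 were lower (Sesn1 and Btg2), 3 oxidative stress genes were higher and 2 lower (Gclc and Gpx1), and 5 unfolded protein response genes were higher and 1 lower (Ppp1r15a), the added higher calls there being Sdf2l1, Hsp90b1 and Hyou1. The heme oxygenase gene Hmox1 overlapped, at 332, 305 and 249.5 against 293, 293 and 676 CPM.

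Lists of other lineages and of growth gave few calls. None of 20 stem and progenitor genes was called with all livers by edgeR: Lmo2, a transcriptional cofactor, gave 376, 351 and 371 CPM in WT and 274, 233 and 310.2 CPM in Casp8-/- Tnfr1-/- livers, and Kit, the stem cell factor receptor, 73.7, 73.7 and 91 against 84.9, 83.7 and 122 CPM; Cd48 was called higher without liver 3. None of 16 early B-lineage genes was called, with a median of -0.71 and 7 of 16 below WT in every knockout liver; Cd79b gave 7.95, 6.87 and 5.56 against 4.88, 4.99 and 3.88 CPM (adjusted p = 0.376). None of 10 T and natural killer cell genes was called, and the T cell receptor chain Cd3e had at most 1 read in any of the 6 livers. The mast cell, basophil and eosinophil list gave 1 call of 14, Hdc, which neutrophil precursors share, and the megakaryocyte list 1 of 19, Selp (3 without liver 3, with Thbs1 and Plek). None of 16 imprinted growth genes and 17 insulin-like growth factor genes was called with all livers, and Igf2bp3 was called higher without liver 3: Igf2 gave 5340, 5163 and 4642 against 5715, 5269 and 6497 CPM, H19 8985, 8248 and 7623 against 10230, 9523 and 16190 CPM, and Igfbp1 90.8, 66.3 and 89.1 against 342, 402 and 7238 CPM (adjusted p = 0.0596). In the cholesterol efflux list of 16 genes Ch25h, which makes 25-hydroxycholesterol, was higher and Mylip, which degrades the LDL receptor, lower (42.8, 43.4 and 52.8 against 31.8, 31.1 and 33.4 CPM, -0.53 ± 0.13, adjusted p = 0.0384).

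Lists for tissues outside the liver were used to look for other cells in the samples. Of 10 tested genes of skin, gut, pancreas and lung 2 were called higher, the brush border gene Vil1 (1.92, 2.01 and 1.58 CPM in WT and 9.18, 8.09 and 12 CPM in Casp8-/- Tnfr1-/- livers) and the keratin gene Krt15 (0.0384, 0 and 0.158 against 0.702, 0.482 and 2.68 CPM). None of 10 cartilage, bone and connective tissue genes was called by edgeR with all livers, and their summed level was 38.7 to 46.2 CPM in WT and 126.3, 50.3 and 129.1 CPM in the knockout livers. The cartilage collagen Col2a1 gave 39.4, 0.138 and 4.96 CPM there and at most 0.335 CPM in WT, so that liver 1 stood out, and without liver 3 it was the only 1 of 7 tested that was called higher. The part of such tissue in the results was not tested.

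Among the 15 genes outside the interferon list with the largest rise that were called with and without liver 3, Nos2, the inducible nitric oxide synthase, had the largest, with 0, 0.21 and 0.276 CPM in WT and 9.7, 5.92 and 586 CPM in Casp8-/- Tnfr1-/- livers (adjusted p = 0.0198 by edgeR), so that liver 3 set its size. Rgs4, a regulator of G protein signals, gave 0.154, 0.252 and 0.158 against 10.5, 10.4 and 99.8 CPM (adjusted p = 0.00631), and Lrg1, a secreted glycoprotein of the acute phase, 0.422, 0.922 and 0.473 against 16.2, 24.4 and 350.0 CPM (adjusted p = 0.0395). Ccl20, Itln1 and the unnamed transcript B230303A05Rik had no read in any WT liver, and Ccl20 gave 0.702, 0.826 and 0.399 CPM in the knockout livers. Orm1, Sele, Cxcl2, Il1r2, Tnfrsf9, Mmp12 and Serpina3n, described above, Ankrd1 and Hcar2 made up the rest. Of the 15 largest falls called with and without liver 3, which leaves out Clec4f, 3 belong to channels and transporters: Kcna2 (6.84, 5.58 and 6.79 against 0.519, 0.0688 and 0.684 CPM, adjusted p = 0.0102) and Kcnj10 (4.11, 3.06 and 3 against 1.04, 0.482 and 0.399 CPM, adjusted p = 0.00545) encode potassium channels and Slc22a8 (10.4, 9.52 and 11.8 against 3.08, 3.17 and 0.912 CPM, adjusted p = 0.0254) an organic anion carrier. Car3, Ces1d, Ces1e, Ces1g, Fcna and Folr2 are described above. The remaining 6, Fam81a, Rbm44 and the predicted genes Gm16401, Gm42604, Gm20033 and E330021D16Rik, were at 6.54 CPM or less in WT.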

How the data were processed

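RNA of E15.5 fetal livers was sequenced as single-end reads and aligned with GSNAP to GRCm38, per the submitters' processing notes and the study's methods. The authors deposited 1 table per liver that holds, for 52636 genes, raw counts of exonic reads that mapped uniquely, and RPKM values, the latter used here only to recover each liver's read total. The labels and the study's methods name different library kits and sequencers, and the counting tool, annotation release and use of strand are not given in the sources used here, so overlapping and near-identical genes are uncertain. No sample was pooled, and the labels do not say that livers came from separate litters, so p-values measure the spread between these livers.

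Counts were fitted in R 4.3.3 with the edgeR 4.0.16 quasi-likelihood test, a mean per genotype over all 11 livers, TMM factors and filterByExpr (minimum count 10), with a fold change of Casp8-/- Tnfr1-/- over WT and Benjamini-Hochberg adjustment over 17243 genes. SE is of the log2 fold change. The script was tested on simulated data. The members and lists were chosen with earlier results of these data known. Per list, up to 4 genes called higher and 4 lower, by smallest p, are named, or the 2 with the highest WT level where none was called; to these come the 15 largest rises and falls called with and without liver 3 outside the interferon list, Casp8 and Tnfrsf1a, and other members to show a role not called; a few of these genes are not reported here. Of the motif spellings searched in RefSeq promoters, 3 were chosen after their shares were seen. The symbols Ahsp, Hjv, Mnda, Sting1 and Mb21d1 of the lists matched no gene. Alternatives were DESeq2 1.42.0 (its size factors and its Wald test), limma-voom (limma 3.58.1), other filters and samples, a replicate block and leaving out each liver; 3 were added after seeing the data.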

Additional observations from a re-analysis of the deposited data

How the results depend on the processing

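A set of 119 genes, not every gene named above, was followed across the alternatives. Of these, 115 were called, and all 115 kept their sign under each alternative in which they were tested. There were 17 alternatives for all but Ccl20, which was tested in 13. Under every one 52 were called, among them Gpnmb, Acod1, Mmp12, Ccl2, Cxcl1, Csf1, Lcp2, Plac8, Steap4, Car3 and Folr2. The number of genes higher and lower moved to 1775 and 589 with the DESeq2 Wald test, to 451 and 35 with only the 2 genotypes in the fit, and to 532 and 40 with the replicate block. Deviations of same-numbered livers from their group means correlated at -0.0242, -0.0447 and -0.0679, and no Casp8-/- Tnfr1-/- liver correlated best with the WT liver of its own number. With few livers in a group and liver 3 far from the others, these values cannot show whether the numbers pair the livers. Without the filter 65 genes were lower. Leaving out each of the 6 livers in turn gave 270 to 1297 higher and 11 to 435 lower genes, the lowest counts without a WT liver. Of the alternatives chosen after seeing the data, leaving out Casp8-/- Mlkl-/- liver 1 gave 1246 higher and 368 lower, the 2 genotypes alone without liver 3 gave 2829 and 2085, and limma-voom without liver 3 gave 1320 and 472. The cause was not tested. The change of Mpo turned to -0.40 with limma-voom and ran from -0.10 to 0.93 when single livers were left out, lowest without Casp8-/- Tnfr1-/- liver 2. The globin list's median, 0.63, ran from -0.85 to 1.06 over the alternatives, while those of the late neutrophil, acute phase, erythroid, heme and DNA replication lists kept their sign under all 17. Genes with few reads in WT have fold changes that depth limits.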
